A study of Mus musculus with 8 samples.

Results

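Ptf1a and its surroundings on mouse chromosome 2 were examined here as the 11 counted open-chromatin regions, of 26620 in all, that overlap the interval from 19.00 to 20.30 Mb (mm9). Within this interval the regions were taken by position, and the start of Ptf1a near 19.367 Mb was taken as given with that interval. Accessibility was measured in tailbuds by ATAC-seq, an assay that tags open DNA with the Tn5 transposase. The tailbuds were dissected at embryonic day 9.5. Sd/Sd embryos, homozygous for Danforth's short tail (4 libraries), were compared with WT/WT embryos (4 libraries), and both genotypes were of the outbred CD-1 background in which Sd/+ animals were kept. Tailbuds of 2 mice were pooled where one gave too little material, so the p-values describe the spread between these libraries. The mutation is germline and present in every cell of the embryo, and whole tailbuds mix notochord, neural, mesodermal and hindgut cells. In such bulk samples, more cells of one kind and more open chromatin per cell cannot be told apart. The files name no genes, so the labelled tissue could not be checked against marker genes here.

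As background, PTF1A is a basic helix-loop-helix protein that binds DNA with an E-protein partner and RBPJ, and it is best known for specifying the pancreas and inhibitory neurons of the dorsal neural tube and cerebellum. It is not known as a factor of the early tailbud. Danforth's short tail is a dominant mutation in which a retrotransposon is inserted upstream of Ptf1a, with Ptf1a switched on in the caudal embryo, loss of the notochord and a truncated spine. The inserted element is not part of the mm9 reference sequence, so its own accessibility is not measured in these counts.

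In the gene order of RefSeq (GRCm38.p6), the coding genes before Ptf1a are Armc3, an armadillo-repeat gene, and Msrb2, a methionine sulfoxide reductase. The non-coding genes Gm33940 and Gm13344 lie between Msrb2 and Ptf1a, and the antisense gene Ptf1aos begins beyond the Ptf1a start and runs back across it. After Ptf1a come 1810010K12Rik, which is non-coding, the coding gene 4921504E06Rik, then Otud1, which encodes a deubiquitinase, and Etl4, also called Skt, a gene of notochord and intervertebral discs. The counts are in mm9 and this gene order is in another build, so only Ptf1a is placed on a counted region.

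The RefSeq promoter windows of Ptf1a and of its antisense gene, 250 bases before to 50 after each start, are shown because one of the regions with a higher level in Sd/Sd lies over the Ptf1a start. The windows are on chromosome 2 of GRCm38.p6 at chr2:19445413-19445712 (plus strand) for Ptf1a and at chr2:19446625-19446924 (minus strand) for Ptf1aos, and these coordinates are not comparable with the mm9 positions of the counts. Capitals mark matches to the motifs searched.
Ptf1a: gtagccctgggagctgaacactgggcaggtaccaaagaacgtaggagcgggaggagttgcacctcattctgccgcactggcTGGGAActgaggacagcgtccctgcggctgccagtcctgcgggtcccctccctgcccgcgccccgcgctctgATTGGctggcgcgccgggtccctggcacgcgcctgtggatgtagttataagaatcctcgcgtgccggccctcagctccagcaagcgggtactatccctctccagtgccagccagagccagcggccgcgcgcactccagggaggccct
Ptf1aos: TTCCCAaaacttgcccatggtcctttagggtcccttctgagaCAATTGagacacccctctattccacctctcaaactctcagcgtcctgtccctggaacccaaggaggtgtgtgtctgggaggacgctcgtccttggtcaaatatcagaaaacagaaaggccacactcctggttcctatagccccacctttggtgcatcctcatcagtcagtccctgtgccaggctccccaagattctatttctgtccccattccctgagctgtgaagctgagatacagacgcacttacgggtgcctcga

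Motifs were searched on both strands, and no matches in these windows overlapped each other. The Ptf1a window held 1 RBPJ motif (TGGGAA), which 25.6% of the 32851 promoter windows of the table hold, and 1 CCAAT box (CCAAT), on the opposite strand, which 37.4% hold. It held no match to the E-box letters CANNTG that basic helix-loop-helix proteins bind, which 72.3% of windows hold, and none to TATAAA (13.6%), GGGCGG (35.7%) or the GLI motif GACCACCCA (0.253%). The Ptf1aos window held 1 E-box and 1 RBPJ motif, the RBPJ motif on the opposite strand. The Ptf1a window had a GC content of 67.3%, above that of most windows (86.2nd percentile), while the Ptf1aos window had 53.0% against a median of 52.7% over all windows. A match is a run of letters in the reference and does not show binding.

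The 8 libraries held between 2873918 and 4180434 counts over all regions, with 3090233 to 4180434 in Sd/Sd and 2873918 to 3451166 in WT. Levels are given as CPM, counts scaled to the TMM-corrected library total, and differences as log2 fold changes of Sd/Sd over WT from edgeR's quasi-likelihood test with Benjamini-Hochberg adjustment over all 26620 regions.

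In order of position, the 11 regions began at 19.12, 19.20, 19.29, 19.34, 19.35, 19.37, 19.47, 19.58, 19.64, 19.83 and 20.21 Mb. Thus 5 lay before the region at 19.37 Mb, which covers the Ptf1a start, and 5 after it. Gaps between neighbours ran from 12145 to 380687 bp, with a median of 85765 bp against 46857 bp over all regions, and the shortest was that between 19.35 and 19.37 Mb. Widths ran from 330 bp at 19.20 Mb to 1838 bp at 19.58 Mb, and the regions covered 12677 bp, or 0.975% of the interval. Bins of 1.3 Mb along the autosomes held a median of 13 regions, and 42.3% of 1846 bins held no more than 11, so the number of open regions around Ptf1a was close to the median.

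**Figure D1:**
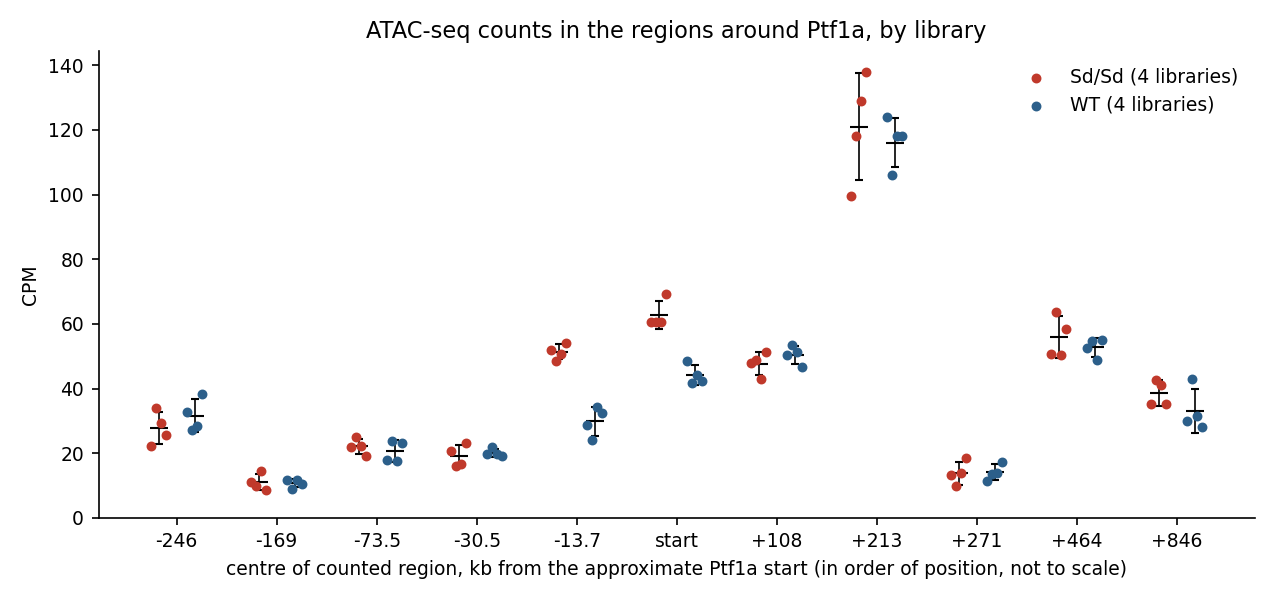
CPM of each library (points) with the mean and SD of each genotype (black), for the 11 regions in order of position; the x axis gives the distance of each region's centre from the approximate Ptf1a start and is not to scale. At -13.7 kb and at the start the Sd/Sd points (left) all lie above the WT points (right), and in the other 9 regions the genotypes overlap.

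The region nearest before Ptf1a, at 19.35 Mb, was more accessible in Sd/Sd tailbuds. It spans chr2:19352448-19354135 and ends 12145 bp before the region over the start. Its levels were 52.0, 48.6, 50.8 and 54.2 CPM in Sd/Sd replicates 1 to 4, against 28.8, 24.1, 34.2 and 32.4 CPM in WT replicates 1 to 4. These rest on 187, 150, 169 and 224 counts in Sd/Sd and on 100, 73, 99 and 110 counts in WT. The lowest Sd/Sd library lay well above the highest WT library, and the Sd/Sd libraries lay closer together than the WT libraries. The fold change was 1.72 (95% interval 1.43 to 2.07), with a mean of 51.4 ± 2.35 CPM in Sd/Sd and 29.9 ± 4.46 CPM in WT (SD, n = 4 each). The log2 fold change of 0.78 (SE 0.14) passed the test over all regions (edgeR adjusted p = 0.000487), with the smallest p of the 26620. It ranked 22nd of all regions from the highest log2 fold change down. Both bounds of the region came from the peak of Sd/Sd replicate 4, and the part of this in the difference was not tested.

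The region over the Ptf1a start, at 19.37 Mb, spans chr2:19366281-19367930. Its levels were 60.6, 60.5, 60.7 and 69.2 CPM in Sd/Sd replicates 1 to 4, against 48.5, 41.6, 44.3 and 42.4 CPM in WT replicates 1 to 4. Again each Sd/Sd library lay above each WT library, with 3 of the Sd/Sd libraries almost equal and replicate 4 above them. The counts were 218, 187, 202 and 286 in Sd/Sd and 168, 126, 128 and 144 in WT. The mean was 62.8 ± 4.30 CPM in Sd/Sd and 44.2 ± 3.06 CPM in WT (SD, n = 4 each), a fold change of 1.42 (95% interval 1.21 to 1.67). Its log2 fold change of 0.51 (SE 0.12) had the sixth smallest p of all regions and did not pass after adjustment (edgeR adjusted p = 0.0966). Without Sd/Sd replicate 4 the log2 fold change was 0.45 (edgeR adjusted p = 0.427), and without WT replicate 1 it was 0.56 and passed (edgeR adjusted p = 0.0348).

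One of the 11 regions therefore passed the adjusted threshold of 0.05, against 0.0188% of all regions tested and 0.00751% in the direction of a higher level in Sd/Sd. An unadjusted p under 0.05 was reached by 2 of the 11, both higher in Sd/Sd, against 6.06% of all regions and 2.98% in that direction. Each Sd/Sd library lay above each WT library at these 2 regions, which 1.67% of all regions showed, and at none of the 11 did each Sd/Sd library lie below each WT library (1.53% of all). The interval was chosen with these differences already known, so the counts describe it and are no independent evidence.

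**Figure D2:**
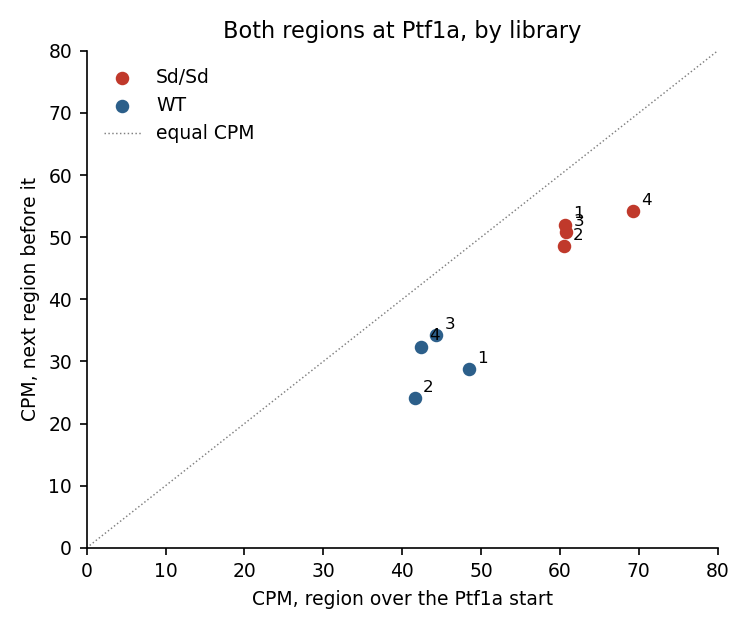
CPM of the region at 19.35 Mb (y axis) against CPM of the region over the Ptf1a start (x axis), 1 point per library labelled with its replicate number; the dotted line marks equal CPM. The Sd/Sd libraries lie at 48.6 to 54.2 CPM on the y axis and 60.5 to 69.2 CPM on the x axis, above and to the right of the WT libraries at 24.1 to 34.2 and 41.6 to 48.5 CPM.

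In these libraries the change was larger at 19.35 Mb than over the Ptf1a start. The log2 ratio of the region before Ptf1a to the region over its start was -0.22, -0.31, -0.25 and -0.35 in Sd/Sd replicates 1 to 4, against -0.74, -0.77, -0.37 and -0.38 in WT replicates 1 to 4. The highest WT ratio lay just below the lowest Sd/Sd ratio, and the WT libraries fell into a lower and a higher pair. The mean was -0.28 ± 0.0585 in Sd/Sd and -0.56 ± 0.221 in WT (SD, n = 4 each). The changes thus differed by 0.28 log2 units, a 1.21-fold difference (exact permutation test over 70 arrangements, two-sided, p = 0.0286, the smallest p these libraries allow). The pair was known to differ before this test, and 19.35 Mb had the smallest p of all regions in the same libraries. The permutation p therefore describes these libraries and is no independent evidence of unequal changes. With any library left out the smallest p that can be reached lies above the threshold, and the difference then ran from 0.21 to 0.35.

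Together the pair of regions took 25.8%, 22.9%, 23.7% and 24.6% of the CPM in the 11 regions in Sd/Sd replicates 1 to 4, against 18.1%, 15.7%, 18.7% and 17.3% in WT replicates 1 to 4. The remaining 9 regions summed to 357 ± 24.0 CPM in Sd/Sd and 350.0 ± 7.14 CPM in WT, a ratio of 1.02 (SD, n = 4 each). The total over all 11 was 471 ± 27.3 CPM in Sd/Sd and 424 ± 6.29 CPM in WT, a ratio of 1.11. The difference in the total was thus mostly that of the pair, which summed to 114 ± 6.08 CPM in Sd/Sd and 74.0 ± 5.79 CPM in WT.

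The next region farther from Ptf1a, at 19.34 Mb (chr2:19336119-19336918), lies 15529 bp before the region at 19.35 Mb. Its levels were 20.8, 15.9, 16.8 and 23.0 CPM in Sd/Sd replicates 1 to 4, against 19.6, 21.8, 19.7 and 19.1 CPM in WT replicates 1 to 4. The WT values fell inside the range of the Sd/Sd values. Its log2 fold change of -0.06 (95% interval -0.44 to 0.32) did not pass (edgeR adjusted p = 0.994).

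On the other side, the nearest region after Ptf1a begins 106909 bp beyond the region over its start, at 19.47 Mb (chr2:19474840-19476153). It had 47.8, 48.9, 43.0 and 51.3 CPM in Sd/Sd replicates 1 to 4, against 50.5, 53.5, 51.2 and 46.8 CPM in WT replicates 1 to 4. The groups overlapped, with a log2 fold change of -0.08 (95% interval -0.32 to 0.16; edgeR adjusted p = 0.974).

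The region at 19.58 Mb (chr2:19578869-19580706) was the most accessible of the 11 in each genotype. It had 99.5, 118, 129 and 138 CPM in Sd/Sd replicates 1 to 4, against 124, 106, 118 and 118 CPM in WT replicates 1 to 4. The WT values fell inside the Sd/Sd range, and the log2 fold change was 0.06 (95% interval -0.12 to 0.23; edgeR adjusted p = 0.972). As a fold change, this 95% interval ran from 0.922 to 1.18.

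The other 6 regions, at 19.12, 19.20, 19.29, 19.64, 19.83 and 20.21 Mb, overlapped between the genotypes as well. The region at 19.12 Mb averaged 27.8 ± 5.03 CPM in Sd/Sd and 31.6 ± 5.04 CPM in WT. The region at 19.20 Mb averaged 11.0 ± 2.52 CPM in Sd/Sd and 10.8 ± 1.36 CPM in WT. The region at 19.29 Mb averaged 22.1 ± 2.38 CPM in Sd/Sd and 20.6 ± 3.33 CPM in WT. All 3 lie before Ptf1a, and their differences were smaller than the larger SD. After Ptf1a, the region at 19.64 Mb averaged 13.8 ± 3.56 CPM in Sd/Sd and 14.1 ± 2.42 CPM in WT. The region at 19.83 Mb averaged 55.9 ± 6.39 CPM in Sd/Sd and 52.8 ± 2.91 CPM in WT. The region at 20.21 Mb, the farthest from Ptf1a, averaged 38.6 ± 3.89 CPM in Sd/Sd and 33.1 ± 6.71 CPM in WT (SD, n = 4 each throughout). Its log2 fold change of 0.22 was the farthest above 0 outside the pair, and that of 19.12 Mb, at -0.20, the farthest below.

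Across the 9 regions outside the pair the median log2 fold change was 0.024, with 5 above and 4 below 0, against a median of 0.00057 over all regions. The smallest unadjusted p was 0.121 and the smallest edgeR adjusted p 0.875. The 95% intervals of these 9 regions together ran from 0.705-fold to 1.46-fold, and changes beyond that range lie outside these intervals. The median log2 fold change was -0.017 for the 4 regions before the pair and 0.059 for the 5 regions after it.

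**Figure D3:**
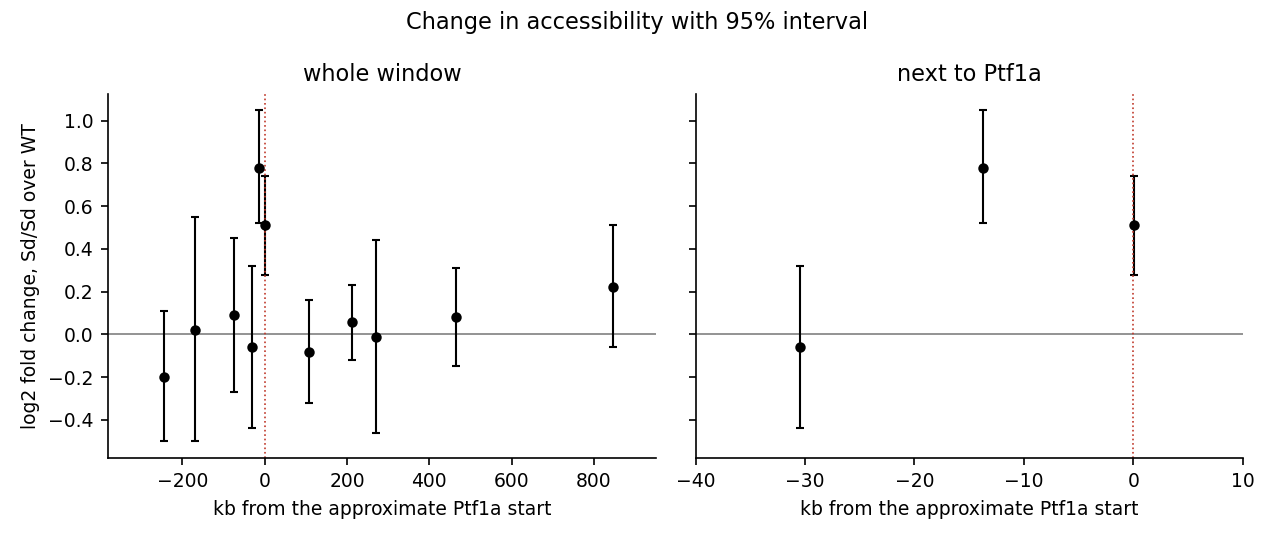
Log2 fold change of Sd/Sd over WT with its 95% interval for the 11 regions, against the distance of the region's centre from the approximate Ptf1a start (dotted line), over the whole interval (left) and next to Ptf1a (right). The intervals at -13.7 kb (0.52 to 1.05) and at the start (0.28 to 0.74) lie above 0, and the intervals of the other 9 regions include 0.

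Because the regions differ in width, levels were also set side by side as CPM per kb of region. In Sd/Sd the region at 19.58 Mb came first with 65.9 CPM per kb, followed by the region over the Ptf1a start with 38.0 CPM per kb. In WT the region at 19.58 Mb was also first, with 63.3 CPM per kb, and the region over the Ptf1a start was the ninth of 11, with 26.8 CPM per kb. The region at 19.35 Mb was the seventh in Sd/Sd with 30.4 CPM per kb and the last in WT with 17.7 CPM per kb. In WT each library of the region at 19.35 Mb lay below each library of the next region up in the order, at 19.34 Mb with 25.1 CPM per kb. Of the 10 pairs of neighbours in the order of levels, the libraries overlapped for 9 in Sd/Sd and for 8 in WT, so most of the order in between is not resolved. Averaged over the 8 libraries, the region at 19.35 Mb stood at the 18.3rd percentile of all regions in CPM per kb and the region over the start at the 48.4th percentile. In width they stood at the 91.8th and 90.9th percentiles. Both bounds of the region at 19.35 Mb came from the peak of Sd/Sd replicate 4, and WT peaks covered 17.9% to 26.0% of it. The part of these bounds in its level per kb and its place in the order was not tested.

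**Figure D4:**
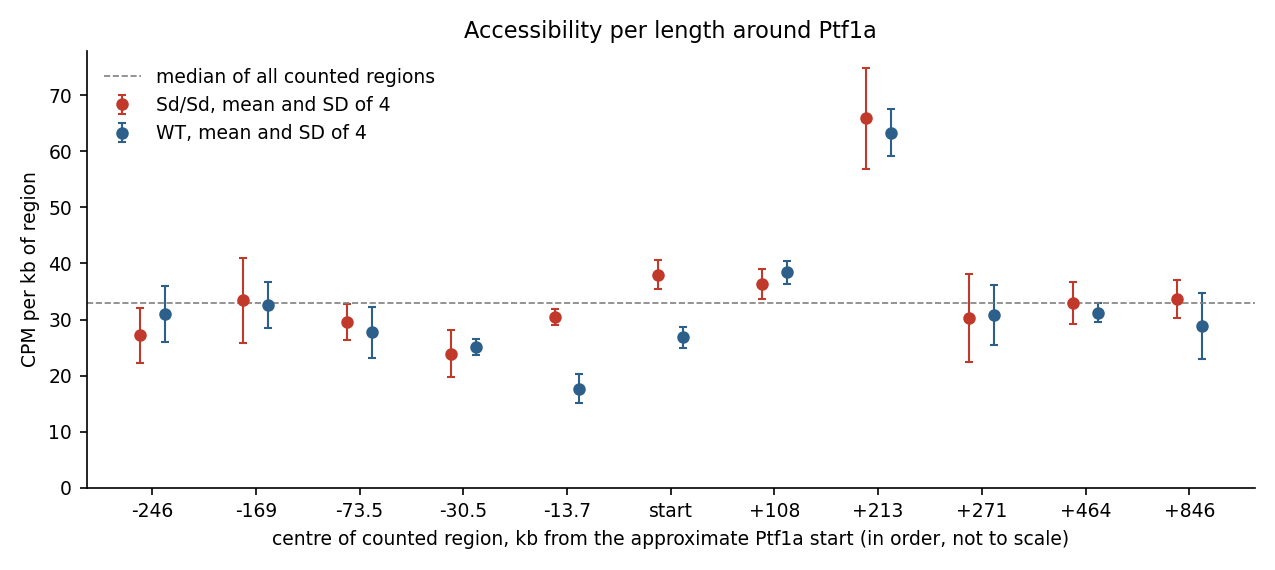
CPM per kb of region, mean and SD of the 4 libraries of each genotype, for the 11 regions in order of position; the dashed line is the median of all counted regions, 32.9 CPM per kb. At -13.7 kb the mean is 30.4 in Sd/Sd and 17.7 in WT, the lowest WT mean of the 11. The width of that region was set by the peak of Sd/Sd replicate 4. At the start the means are 38.0 in Sd/Sd and 26.8 in WT.

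The peak lists, which the authors called in each library alone, give a second description of the same reads. They hold peaks with a q of up to 0.1, and they placed 79 peaks in the interval. Sd/Sd replicates 1 to 4 had 11, 10, 11 and 11 peaks, and WT replicates 1 to 4 had 8, 9, 8 and 11 peaks. Of the 11 counted regions, a peak was called on 10 in each Sd/Sd library and on 8 to 9 in WT libraries. The libraries' whole peak lists held 21306 to 30387 peaks in Sd/Sd and 18682 to 24664 peaks in WT. Per 10000 peaks of the library the interval held 4.26, 4.69, 4.56 and 3.62 peaks in Sd/Sd replicates 1 to 4, against 3.54, 4.43, 4.28 and 4.46 in WT replicates 1 to 4, and the groups overlapped.

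A peak was called in all 8 libraries on 5 of the regions, at 19.12, 19.47, 19.58, 19.83 and 20.21 Mb, against 41.3% of all regions. Neither region of the pair was among them. The region at 19.35 Mb had a peak in 4 Sd/Sd and 2 WT libraries, and the region over the Ptf1a start in 4 Sd/Sd and 3 WT libraries. The region at 19.34 Mb, whose level did not pass the test, had a peak in 4 Sd/Sd and 1 WT libraries. Its peaks had a -log10 q of 1.53, 1.21, 1.09 and 2.13 in Sd/Sd replicates 1 to 4 and of 1.2 in WT replicate 3. A peak in all 4 Sd/Sd and at most 2 WT libraries was thus found at 2 of the 11 regions, against 4% of all regions. The converse was found at none of the 11, against 1.16% of all. Which regions meet this rule depends on the q of up to 0.1. Among the weakest peaks were Sd/Sd replicate 3 at 19.34 Mb and WT replicate 2 over the Ptf1a start (-log10 q of 1.16). With both peaks dropped, the region over the start would meet the rule and that at 19.34 Mb would not. The region at 19.20 Mb had a peak in 3 Sd/Sd and 2 WT libraries, that at 19.29 Mb in 4 Sd/Sd and 3 WT libraries, and that at 19.64 Mb in 1 Sd/Sd and 2 WT libraries.

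Within the region at 19.35 Mb the peaks did not share one position. In Sd/Sd replicate 4 the peak filled the whole region of 1688 bp and set both of its bounds. In Sd/Sd replicate 3 it ran from 64 to 1367 bp into the region. In Sd/Sd replicate 2 and in WT replicate 4 it lay near the lower end, from 29 to 390 bp and from 111 to 550 bp. In Sd/Sd replicate 1 and in WT replicate 3 it lay nearer the upper end, from 1039 to 1640 bp and from 999 to 1301 bp. Peaks of libraries of each genotype were thus found at each end. They covered 21.4% to 100% of the region in Sd/Sd and 17.9% to 26.0% in WT. The enrichment and significance of these peaks are the peak caller's values, and -log10 q ran from 1.47 to 4.05 in Sd/Sd and from 1.76 to 2.27 in WT.

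Over the Ptf1a start the peaks covered 48.8% to 83.3% of the region in Sd/Sd and 26.4% to 71.6% in WT. The bounds of this region came from WT replicate 1 at the lower and Sd/Sd replicate 3 at the upper end. The peak of WT replicate 2, with a -log10 q of 1.16, ran past the upper bound, to 1699 bp into the region of 1650 bp. Over all peaks of this region -log10 q ran from 2.37 to 3.74 in Sd/Sd and from 1.16 to 2.84 in WT. Because regions were drawn from peaks of the same libraries, their bounds depend on the peaks of single libraries, though not every deposited peak lies wholly inside them. The part of this in the differences was not tested.

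**Figure D5:**
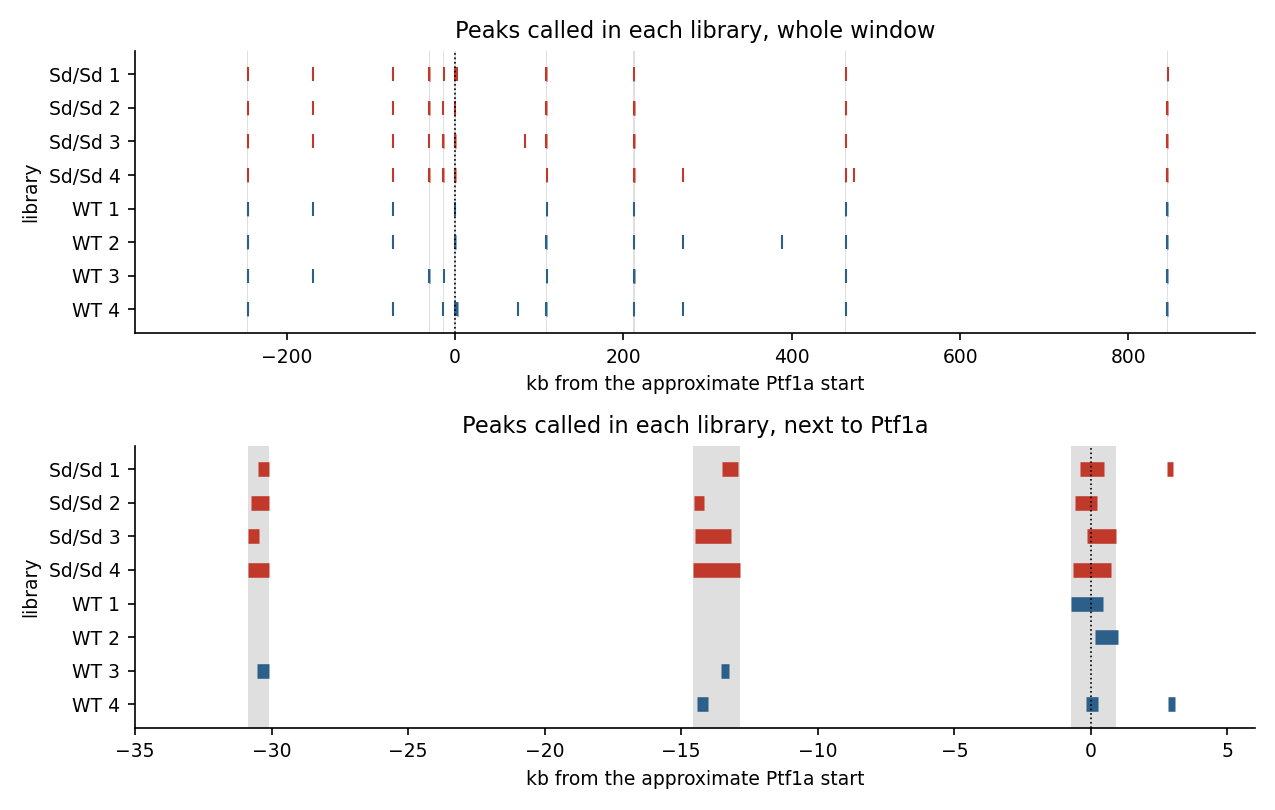
The authors' peaks of each library (Sd/Sd above, WT below) by distance from the approximate Ptf1a start (dotted line), over the whole interval, where a tick marks each peak's centre, and to scale next to Ptf1a; grey bands are the counted regions. At -13.7 kb peaks are present in 4 Sd/Sd and 2 WT libraries, and at the start in 4 Sd/Sd and 3 WT libraries.

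Peaks outside the counted regions were found at 5 places, all after the Ptf1a start. The closest, at chr2:19369783-19370064, begins 1852 bp beyond the region over the start and was called in Sd/Sd replicate 1 and WT replicate 4. The other 4 were called in a single library each, at 19441471 to 19441748 in WT replicate 4, at 19450534 to 19450733 in Sd/Sd replicate 3, at 19755401 to 19755757 in WT replicate 2 and at 19840963 to 19841180 in Sd/Sd replicate 4. No peak outside the counted regions was called between the lower edge of the interval and the Ptf1a start.

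The regions of the genome whose levels followed the region over the Ptf1a start most closely over the 8 libraries were listed by Pearson's r of log2 CPM, as a description, since the libraries share their genotype grouping and their scaling. The region at 19.35 Mb had an r of 0.925 and ranked 18th of all other regions. The first 3 were chr8:68490090-68490758 (r of 0.985), chr2:109350376-109351238 (0.971) and chr3:136952472-136953147 (0.959). These had 19.9 ± 1.28 CPM in Sd/Sd and 13.8 ± 0.995 CPM in WT, 43.4 ± 4.02 CPM in Sd/Sd and 29.1 ± 3.00 CPM in WT, and 28.2 ± 1.53 CPM in Sd/Sd and 23.2 ± 1.64 CPM in WT, in that order (SD, n = 4 each). None of the 3 passed the edgeR test after adjustment (adjusted p = 0.743, 0.189 and 0.862). Within the interval the other 9 regions had r from -0.411 at 19.12 Mb to 0.378 at 20.21 Mb.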

How the data were processed

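The submitters' processing notes name build mm9, the aligner BWA 0.7.15-r1140, the peak caller MACS2 2.1.1.20160309 and bedtools 2.26.0, with other tools. Settings, and any shift of reads for the Tn5 offset, are not stated in the labels. The authors deposited whole-number counts per region for each library, not normalized, over 26620 shared regions, and what 1 count stands for (read, fragment or insertion) is not stated. They also deposited broad peaks per library, with the score, the fold enrichment (ratio) and the −log10 of the p-value and of the q-value, which are the peak caller's own values.

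Counts of all regions were tested with edgeR 4.0.16 in R 4.3.3 (quasi-likelihood F test, robust variance, TMM, filterByExpr, two-sided), with genotype as the only term and Benjamini-Hochberg adjustment over all regions. The procedure was run on simulated counts that gave all regions the same relative spread between libraries. Real regions need not share that spread, so the simulation does not vouch for the adjusted p-values here. Log2 CPM used a prior count of 2. Permutation tests used SciPy 1.17.1. Libraries of the same genotype differed by more than the sampling noise of independent counts and were kept as separate samples. Whether the counts are independent is not known, since what 1 count stands for is not stated. Equal replicate numbers do not mark a shared litter or day in the labels. A peak counted for a region at an overlap of at least 1 bp. Values per library are given for the region over the Ptf1a start, the 2 nearest regions on each side, regions of the interval with an unadjusted p under 0.05 and those of highest and lowest CPM per kb. Alternatives were DESeq2 1.42.0, limma 3.58.1 with voom, other scalings and filters, a replicate block, stricter peaks and leaving out each library. The regions, lists and tests were chosen with earlier results of these data known.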

Additional observations from a re-analysis of the deposited data

Results flagged for a closer look

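Of 32 groups of 4 libraries examined around Ptf1a, 1 held a library far from the other 3, where chance gives about 1 group in 20. Over the Ptf1a start Sd/Sd replicate 4 had 69.2 CPM, against 60.5 to 60.7 CPM in the other Sd/Sd libraries. This library also had the highest total count.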

How the results depend on the processing

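The rise at 19.35 Mb passed the adjusted threshold in each of the 16 alternative fits, with log2 fold changes from 0.70 to 0.85 and adjusted p from 3.28e-05 to 0.0306 (edgeR, DESeq2 or limma). No fit redrew the regions. The bounds at 19.35 Mb thus came from the peak of Sd/Sd replicate 4 also in the fit without that library. At the Ptf1a start the log2 fold change ran from 0.45 to 0.56, and adjusted p from 0.0136 to 0.427. It passed with a replicate block (log2 fold change 0.51, edgeR adjusted p = 0.0136) and without WT replicate 1 (0.56, edgeR adjusted p = 0.0348), so that 2 regions of the interval were called in these fits and 1 in the others. The cause was not tested. Deviations of equally numbered libraries from their group means correlated at -0.00107 to 0.0918. Unequally numbered libraries were not compared, so these values do not settle whether the libraries are paired. Over all regions the calls numbered 5, against 23 with the block, 15 without robust variance, 9 with voom, 3 with DESeq2 and 2 to 19 with a library left out. The difference between the changes of the pair kept its direction at 0.28 with the block (exact permutation p = 0.125, the smallest possible there) and at 0.21 to 0.35 with a library left out (exact permutation p = 0.0571, the smallest possible there), and fewer arrangements account for both losses. Log2 fold changes near 0 changed sign with a library left out. The region at 19.20 Mb had between -0.13 and 0.14, that at 19.34 Mb between -0.17 and 0.019, that at 19.58 Mb between -0.017 and 0.14, and that at 19.64 Mb between -0.19 and 0.12. Sd/Sd libraries averaged 1.75 more peaks in the interval than WT libraries, without scaling to their whole peak lists. The difference was 1.25 at a -log10 q of at least 2 and 0.75 at a -log10 q of at least 5. It was 3.25 when a peak had to cover at least 50% of a region. With all deposited peaks scaled to 10000 peaks per library, the groups overlapped.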
